A study of Mus musculus with 60 samples.

Results

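Genes of the heat shock proteins and of the J-domain proteins were followed through peak lists of mouse dorsal root ganglia, the clusters of sensory neurons and glia beside the spinal cord. Members were taken by name: every protein-coding gene of the RefSeq annotation of GRCm38.p6 whose symbol starts with Hspa, Hspb, Hspd, Hspe, Hsph, Hsp90 or Dnaj. This gave 74 of 21883 genes on the chromosomes of the lists. There were 13 HSP70 genes, 3 HSP90 genes, 1 HSP110 gene (Hsph1), 2 mitochondrial chaperonin genes and 7 small heat shock genes. A further 3 genes (Hspb11, Hspbp1 and Hspbap1) carry the name without being small heat shock proteins. The J-domain genes numbered 45, with 4 Dnaja, 13 Dnajb and 28 Dnajc genes.

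C57BL/6 mice aged 6 to 8 weeks had 1 of 4 operations, and ganglia L4 to L6 were taken 24 h later. Sciatic nerve axotomy (SNA) cuts the peripheral branch of the sensory neurons and was set against sham surgery on that nerve (Sham). Axotomy of the spinal dorsal columns (DCA) cuts their central branch and was set against laminectomy (Lam), which opens the spine without cutting axons. The 60 samples were 24 ChIP samples, 24 inputs and 12 ATAC samples: for each histone mark and operation 2 ChIP samples and 2 inputs of 10 pooled mice, and for each operation 3 ATAC samples of 1 mouse. The 3 marks were H3K9ac and H3K27ac, 2 acetylations of histone tails found on active regulatory DNA, and H3K27me3, a methylation of repressed chromatin. ATAC-seq finds DNA open to a transposase. Replicates of an assay and operation had been pooled into 1 peak list, 16 lists in all, so no value below has a replicate error and no test between operations was possible. Intervals cover counting error only, and the read depth behind each list is unknown. Whole ganglia were used, so a change in the mix of cells and a change within cells cannot be told apart.

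Molecular chaperones bind unfolded protein and keep it from clumping. J-domain proteins bring such clients to HSP70 and make it split ATP, and exchange factors then swap ADP for ATP so that the cycle can run again. HSP90 finishes the folding of many kinases and receptors, the chaperonin folds protein in mitochondria, and small heat shock proteins hold clients without ATP. Under stress, heat shock factor 1 binds repeats of the unit nGAAn, the heat shock element, in front of many of these genes. In injured sensory neurons Hspb1 is known as a survival and regeneration factor.

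Most chaperone genes had open start sites in all 4 ATAC lists, and acetylation at the starts was less complete. A gene was counted as having a start peak when a peak came within 1 kb of any of its listed starts, or of either gene end for the 14 members whose start was not listed. ATAC start peaks were present in 69, 67, 70 and 70 of the 74 genes in the Sham, SNA, Lam and DCA lists. Over all genes the shares were 68.8%, 70.7%, 69.0% and 70.1%. Of the members, 65 (87.8%) had one in all 4 ATAC lists, against 62.1% of all genes. Values are given in that order of operations throughout. H3K9ac start peaks were found at 62, 63, 66 and 70 members, with shares over all genes of 50.1%, 51.4%, 51.1% and 59.9%. In the Sham list this was 83.8% of the members (Wilson 95% interval 73.8% to 90.5%). H3K9ac start peaks were in all 4 lists at 56 members (75.7%, against 43.2% of all genes). The DCA list held the most H3K9ac member starts and was also the largest H3K9ac list. H3K27ac start peaks were found at 50, 64, 62 and 54 members, against 40.4%, 51.6%, 51.3% and 43.3% of all genes, and were in all 4 lists at 42 (56.8%, against 32.7%). The H3K27me3 lists had a start peak at 9, 8, 11 and 0 members, against 22.2%, 16.9%, 25.1% and 8.46% of all genes, and the Wilson 95% interval of 0 of 74 reaches 4.93%.

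**Figure D1:**
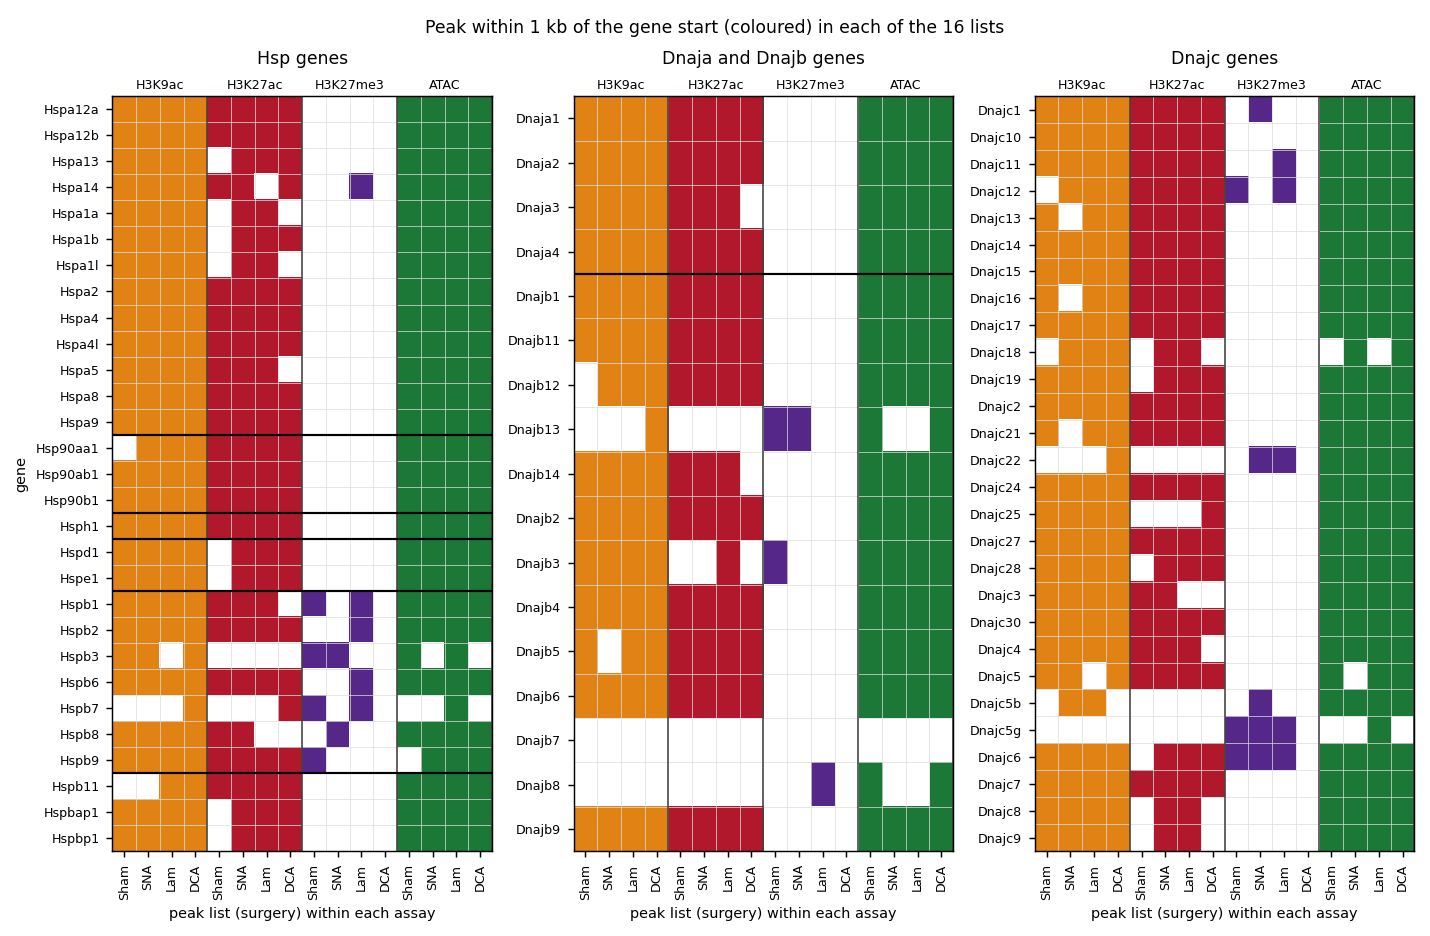
Each row is a chaperone gene and each column 1 of the 16 peak lists, grouped by assay in the order Sham, SNA, Lam, DCA. A coloured cell is a peak within 1 kb of a start of the gene. Bold lines separate the families. ATAC start peaks are in all 4 lists at 65 genes and H3K9ac start peaks at 56, H3K27ac has gaps mostly in the Sham and DCA columns, and H3K27me3 has no coloured cell in the DCA column.

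Start peaks in all 12 H3K9ac, H3K27ac and ATAC lists were a feature of 32 members, 43.2%, against 28.2% of all genes. They included Hspa8, the standing cytosolic HSP70, Hspa4 and Hsph1, which release ADP from HSP70, Hspa9, the HSP70 of mitochondria, and Hsp90ab1, the standing HSP90. Dnaja1, Dnaja2 and Dnajb1, the main cytosolic J-domain partners of HSP70, belonged to them too. A single member, Dnajb7, had a start peak in none of the 12 lists, as did 21.5% of all genes. Dnajb7 lies in the window of St13 and Xpnpep3, and its H3K9ac peaks (2, 4, 2 and 1) were away from its start. Dnajb8 and Dnajc5g, known mainly from testis, also had few (Dnajc5g was chosen after its values were seen). Dnajb8 had no acetylation peak at its start and ATAC start peaks in Sham and DCA only, and Dnajc5g had an ATAC start peak in Lam only and H3K27me3 start peaks in Sham, SNA and Lam.

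Heat shock elements stood within the listed promoters, 250 bases before to 50 after a start, of 16 of the 60 members with a listed start. The search was for a pair of facing units, GAANNTTC or TTCNNGAA, on both strands. That is 26.7% of members, against 15.7% of 17491 promoter-listed genes. A run of 3 facing units was present in 4 members (6.67%) and in 0.595% of all genes. The 4 were Hspd1, Hspe1, Hsph1 and Dnajb6. Hspd1 and Hspe1 hold the same run, read from opposite strands, so these are not 4 separate places. The 16 likewise include Hspd1 and Hspe1, and the near-identical Hspa1a and Hspa1b, as 2 genes each. Shares over all genes were also counted per gene. Among the 6 small heat shock genes with a listed start, 4 held a pair (Hspb1, Hspb3, Hspb6 and Hspb8). A match is a run of letters and not a measured binding site.

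The stretches with runs of units are shown because each can be set against the peaks over it. Sequences are from RefSeq, build GRCm38.p6, read 5′ to 3′ along the strand of the gene named, and capitals mark the matching units. The interval between the starts of Hspd1 (the chaperonin, minus strand) and Hspe1 (its lid, plus strand) is chr1:55087933-55088147, 215 bases. The stretch before the first start of Dnajb6, which keeps polyglutamine proteins soluble, is chr5:29735748-29735897 on the plus strand. In Hsph1 the stretch shown covers bases 9 to 33 after a start, at chr5:149636282-149636306 on the minus strand, and the run within it bases 15 to 27.
Hspe1: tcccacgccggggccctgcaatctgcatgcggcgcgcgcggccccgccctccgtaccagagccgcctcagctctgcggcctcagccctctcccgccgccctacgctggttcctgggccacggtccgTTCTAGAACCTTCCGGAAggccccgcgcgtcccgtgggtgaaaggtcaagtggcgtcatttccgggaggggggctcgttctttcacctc
Dnajb6: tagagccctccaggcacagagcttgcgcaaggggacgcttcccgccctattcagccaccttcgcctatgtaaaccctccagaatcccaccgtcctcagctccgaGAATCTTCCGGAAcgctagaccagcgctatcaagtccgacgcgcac
Hsph1: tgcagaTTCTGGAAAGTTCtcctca

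The next stretches hold pairs only and were chosen after their values were seen, because Hspb1, Hspa1a and Hspa1b are the best known stress-inducible genes of the set and Dnaja4 carries 2 separate pairs. Hspb1 is on the plus strand at chr5:135887779-135887848, 140 to 71 bases before its start. Hspa1a is on the minus strand at chr17:34972227-34972296, the same distance before its start. Dnaja4 is on the plus strand at chr9:54699449-54699528.
Hspb1: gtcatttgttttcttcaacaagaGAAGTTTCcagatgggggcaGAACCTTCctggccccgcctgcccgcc
Hspa1a: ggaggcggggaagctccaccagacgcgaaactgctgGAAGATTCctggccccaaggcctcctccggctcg
Dnaja4: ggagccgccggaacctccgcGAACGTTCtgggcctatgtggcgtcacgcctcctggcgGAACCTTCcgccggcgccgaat

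Hspa1b, at chr17:34959309-34959378, has the same letters as Hspa1a over this stretch. The 300-base promoters of the pair were identical at 296 bases (98.7%), so short reads may not tell the copies apart, and values for either are uncertain.

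The elements lay in open DNA more often than under an acetylation peak. Counting each position once, the 16 genes held 22 elements. Of these, 16 were inside an ATAC peak in all 4 lists and 2, in Dnajc10 and Hspb3, were inside none. Inside H3K9ac peaks of all 4 lists were 4 elements, and 10 were in none. H3K27ac gave 5 and 11. Starts in general had the same order: of 17491 listed starts, 58.5% lay inside an ATAC Sham peak and 21.2% inside an H3K9ac Sham peak. The difference is therefore not particular to the elements. The interval between Hspd1 and Hspe1 shows the arrangement: in regions merged over the lists, 1 ATAC region, chr1:55087086-55088884, covered both starts in all 4 lists, whereas H3K9ac regions of all 4 lists lay on either side of the elements, at chr1:55086458-55088026 and chr1:55088254-55089020. The Hsph1 elements also were inside ATAC peaks of all 4 lists and inside no acetylation peak. At Dnajb6 the elements were inside H3K9ac, H3K27ac and ATAC peaks of all 4 lists. The element of Hspa1a was inside an ATAC peak in 1 list, and both elements of Hspb1 were inside one in 4 lists.

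The number of peaks around the chaperone genes differed between the lists of each assay, and for both acetylations the differences were small once the lists were cut to equal size. Each gene's window was its body and 10 kb on either side, and a peak was counted once for the set. H3K9ac peaks numbered 259, 339, 272 and 391, highest in DCA and lowest in Sham. On the log2 scale SNA over Sham was 0.39 (95% interval 0.15 to 0.63) and DCA over Lam 0.52 (0.30 to 0.75), against 0.54 and 0.79 for all genes. Between the controls, Lam over Sham was 0.07 (−0.18 to 0.32). With the 4 lists cut to equal size by −log10 p, the H3K9ac numbers were 259, 254, 272 and 265, and the log2 ratios became −0.028 and −0.038, against −0.02 and −0.006 for all genes. H3K27ac peaks numbered 212, 333, 303 and 245, so both the SNA list and the laminectomy list were above Sham. SNA over Sham was 0.65 (0.40 to 0.91), DCA over Lam −0.31 (−0.56 to −0.06) and Lam over Sham 0.52 (0.26 to 0.78), against 0.81, −0.52 and 0.64 for all genes. At equal size the numbers were 212, 239, 222 and 236 and the first 2 ratios 0.17 and 0.088, against 0.05 and 0.004 for all genes. ATAC peaks numbered 415, 473, 438 and 443, with SNA over Sham at 0.19 (−0.005 to 0.38) against 0.22 for all genes.

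**Figure D2:**
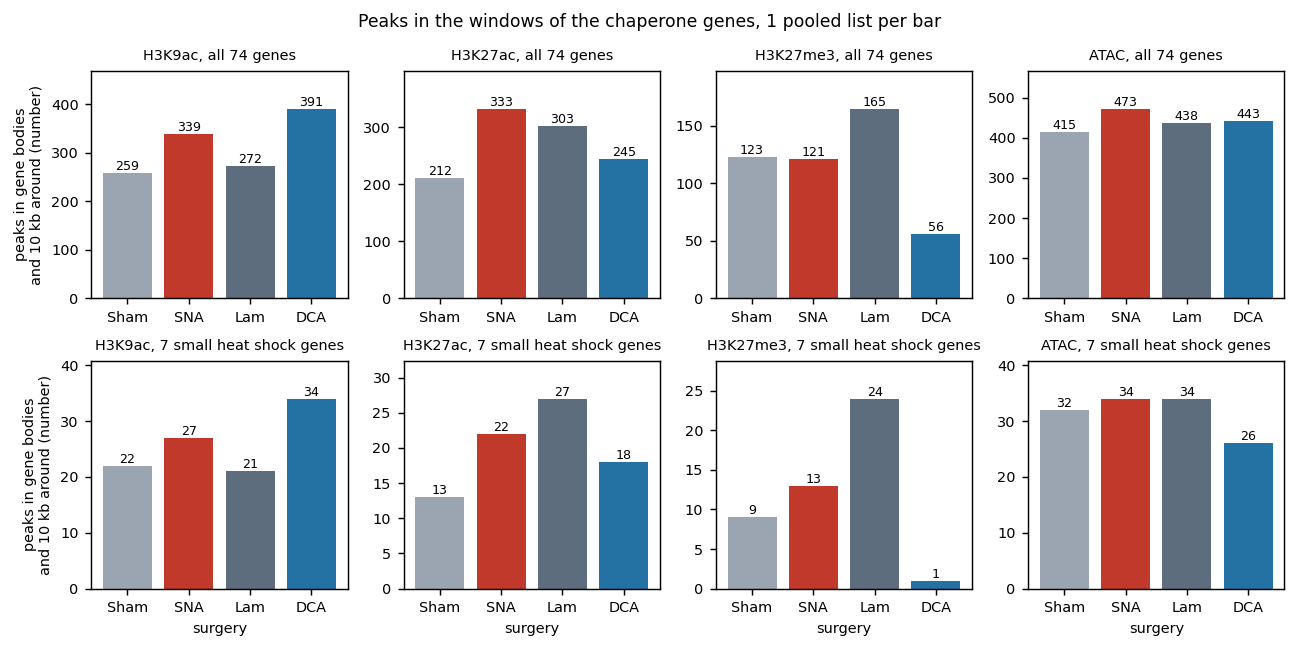
Bars give the number of peaks in the windows of all 74 chaperone genes (upper row) and of the 7 small heat shock genes (lower row), 1 pooled list per bar, by operation. Axes start at 0 and there are no error bars because each bar is 1 list. The H3K27me3 bar of DCA is 56 for all members and 1 for the small heat shock genes, the lowest of its row.

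**Figure D3:**
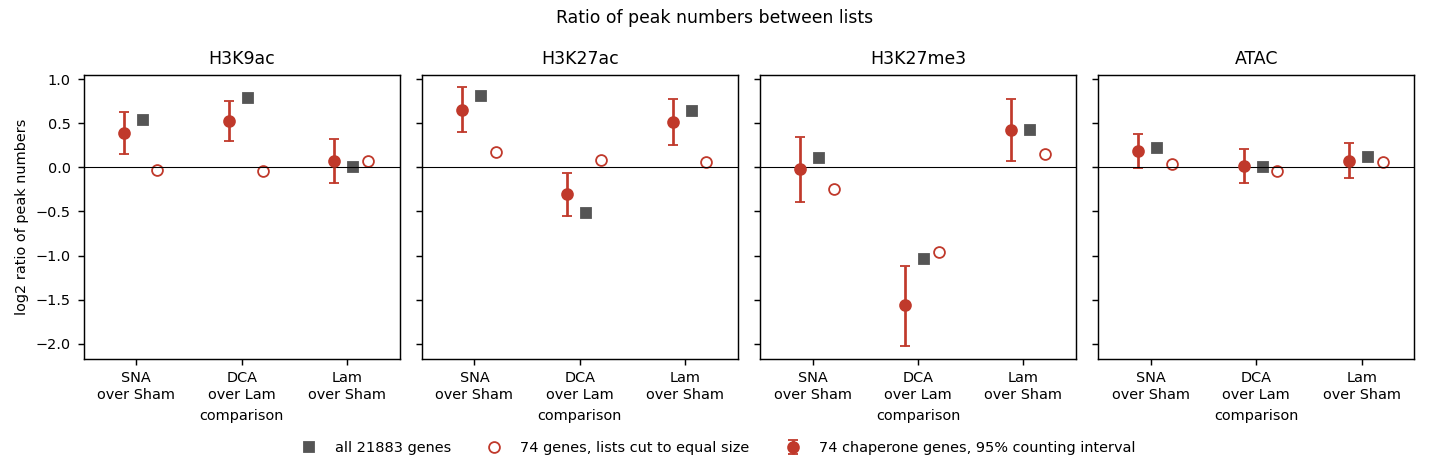
Log2 ratio of the peak numbers of 2 lists for each assay and comparison. Filled circles are the 74 chaperone genes with 95% counting intervals, squares all 21883 genes, and open circles the chaperone genes after the lists were cut to equal size. The filled circles stay on the same side of 0 as the squares except for H3K27me3 of SNA over Sham (−0.02 against 0.11), and the open circles of H3K9ac and H3K27ac lie near 0.

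A gene was called as having more or fewer peaks in an operation when its peak number plus 1 differed at least 2-fold from that in the control. This is a rule of size and not a test. By it 11 members had more H3K9ac peaks in SNA than in Sham (12.2% of all genes were called) and 2 had fewer (2.89%). In DCA against Lam 10 had more (21.9%) and 1 had fewer (1.19%). Between the controls, 7 had more in Lam than in Sham (7.38%) and 4 fewer (7.33%). H3K27ac gave 20 members with more peaks in SNA (21.5%) and 4 with fewer (6.09%). In DCA 1 member, Hspa14, had more H3K27ac peaks (3.36%) and 14 had fewer (14.6%), and in Lam against Sham 13 had more (16.8%) and 2 fewer (4.1%). For ATAC 8 had more in SNA (8.87%) and 2 fewer (4.63%), 2 had more in DCA (7.18%) and 2 fewer (4.98%), and 4 had more in Lam than in Sham (7.05%) and 2 fewer (6.54%). As shares of the 74 members, the H3K9ac counts with more peaks were 14.9% in SNA and 13.5% in DCA, the latter below the 21.9% of all genes.

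At equal list sizes the calls for more H3K9ac peaks numbered 3 members in SNA (4.98% of all genes), Hspa8, Dnajc12 and Dnajc5b, with 6 called for fewer (8.31%). In DCA against Lam 4 had more (7.79%), Hsp90aa1, Hspb1, Hspb11 and Dnajc30, and 4 fewer (5.02%). Lam against Sham gave 7 with more (7.27%) and 4 with fewer (7.46%). For H3K27ac 12 had more in SNA (10.1%), among them Hspa1a, Hspa1l, Hspa13, Hspb2, Hspb6, Hspd1 and Hspe1, and 9 had fewer (11%), among them Hspb1. In DCA against Lam 5 had more (6.45%) and 3 fewer (7.98%), and in Lam against Sham 8 had more (8.12%) and 10 fewer (7.65%).

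The start sites without H3K27ac in the Sham list included the inducible HSP70 genes and the mitochondrial chaperonin. A start peak absent in Sham was present in SNA at 14 members (18.9%, against 13.6% of all genes), and no member had one in Sham and not in SNA, against 2.39% of all genes. The 14 included the stress-inducible Hspa1a and Hspa1b, their neighbour Hspa1l, Hspa13 (an HSP70 of the endoplasmic reticulum), Hspd1 and Hspe1, Hspbap1, and Hspbp1 (an exchange factor of HSP70). The other 6 were Dnajc genes: Dnajc6, Dnajc8, Dnajc9, Dnajc18, Dnajc19 and Dnajc28. The same 14 also had an H3K27ac start peak in Lam, where 15 members (13.1% of all genes) had one that Sham lacked. Both comparisons use the same Sham list, and the share of all genes with such an overlap was not counted. Hspa1a and Hspa1l share a start region, as do Hspd1 and Hspe1, so the 14 are not separate places. Both Sham and Lam are controls without a cut axon. In DCA 9 of the 14 had the peak and 5 (Hspa1a, Hspa1l, Dnajc8, Dnajc9 and Dnajc18) did not. The Sham H3K27ac list was the smallest, with 43803 peaks. An alternative added after the data were seen cut the 4 lists to that size, and 13 members then had a start peak in SNA and not in Sham (10.7% of all genes), all 13 also in Lam. At that size 3 members (Hsph1, Dnajc11 and Dnajc16) had one in Sham and not in SNA, 4.05% against 4.41% of all genes.

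Between the spinal lists, more members had an H3K27ac start peak in Lam alone than in DCA alone. There 11 members had a start peak in Lam and none in DCA (10.4% of all genes), and 3 had one in DCA only (2.39%). Hspa1a, Hspa1l, Hspa5 (BiP, the HSP70 of the endoplasmic reticulum) and Hspb1 were among the 11, with Dnaja3, Dnajb3, Dnajb14, Dnajc4, Dnajc8, Dnajc9 and Dnajc18. At equal list sizes 11 members again met this description (8.54% of all genes). For H3K9ac 5 members had a start peak in SNA and not in Sham (5.19%) and 4 the reverse (3.84%). In DCA and not in Lam 5 had one (9.44%), namely Hspb3, Hspb7, Dnajb13, Dnajc5 and Dnajc22, and 1 the reverse (0.571%). At equal list sizes 4 had one in SNA and not in Sham (3.46%) and 6 the reverse (8.41%). In DCA and not in Lam it was then only Dnajc5 and Dnajc22 (6.48%). The reverse held for 4 members (1.82%): Hspa1a, Hspa1l, Dnajc5b and Dnajc18.

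The 7 small heat shock genes differed from one another. Hspb1 (gene ID 15507, chromosome 5, 135887919 to 135889563, plus strand) had 1, 2, 1 and 5 H3K9ac peaks in its window, and DCA was the only list far from the others. Of its 5 peaks in DCA, 2 were within 1 kb of the gene, where Sham, SNA and Lam had 1, 2 and 1, and at equal list sizes the window held 1, 1, 1 and 5. Its H3K27ac peaks numbered 3, 3, 6 and 2, and at equal list sizes 3, 1, 3 and 2, lowest in SNA. With all peaks they included a start peak in Sham, SNA and Lam and none in DCA. H3K9ac start peaks were in all 4 lists, so in DCA the 2 acetylation marks differed at this start. ATAC start peaks of Hspb1 were in all 4 lists, with fold enrichments over background, as the authors' lists give them, of 3.36, 3.41, 2.90 and 2.39. Folds belong to peaks of their own list and are no measure of change between lists.

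Hspb8, a partner of Bag3 in clearing misfolded protein, had 3, 3, 3 and 5 H3K9ac peaks and 1, 2, 2 and 0 H3K27ac peaks. Its H3K27ac start peak was in Sham and SNA and in neither spinal operation. Its ATAC peaks numbered 9, 7, 4 and 4, fewer in both spinal lists. Hspb6, which is abundant in muscle and also in neural tissue, had 4, 5, 5 and 5 H3K9ac peaks and 2, 6, 3 and 3 H3K27ac peaks, with H3K9ac, H3K27ac and ATAC start peaks in all 4 lists. Hspb2 had the same full set of start peaks, 4, 4, 4 and 7 H3K9ac peaks and 1, 4, 6 and 4 H3K27ac peaks. Its window holds Cryab, a small heat shock gene outside the naming rule, so the peaks cannot be assigned to either gene.

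Hspb3 and Hspb7, known mainly from muscle and heart, were the small heat shock genes with start peaks in the fewest H3K9ac, H3K27ac and ATAC lists. Hspb3 had 1, 1, 0 and 1 H3K9ac peaks, no H3K27ac peak in any list, and 1, 7, 4 and 1 H3K27me3 peaks. Its single ATAC peak was in Sham and Lam, so it was absent after either axotomy. It was the only member called with fewer ATAC peaks in both injuries, as were 0.58% of all genes. Hspb7 had start peaks of H3K9ac and of H3K27ac in DCA alone, with folds of 2.99 and 2.64, and an ATAC start peak in Lam alone. At equal list sizes neither acetylation start peak was left, and the Hspb7 window held 3, 2, 1 and 1 H3K9ac peaks. Hspb9, a testis gene, had 6, 10, 7 and 7 H3K9ac peaks, but its window includes Kat2a, Rab5c and Dhx58, which may carry them.

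**Figure D4:**
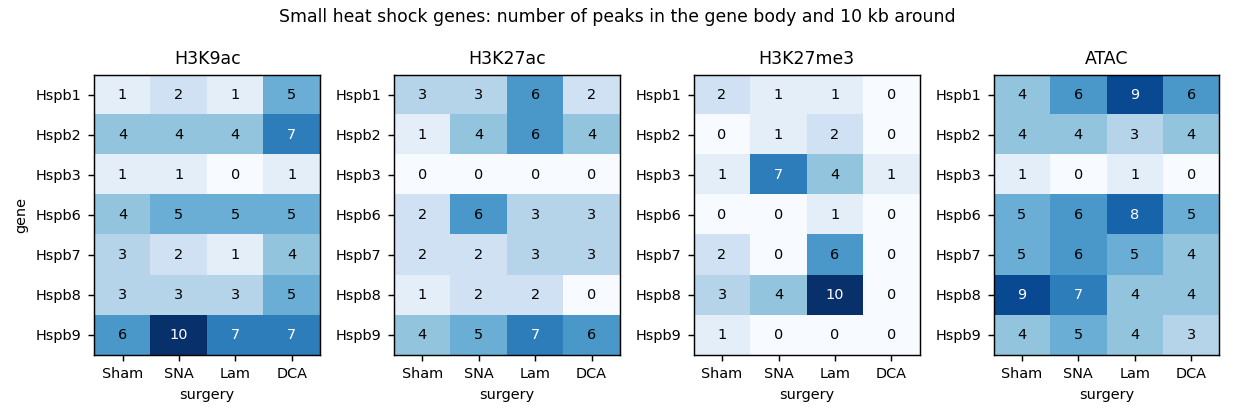
Numbers of peaks in the window (gene body and 10 kb around) of each small heat shock gene, for each assay and operation. Darker cells hold more peaks. The H3K27me3 panel has 10 peaks at Hspb8 and 6 at Hspb7 in Lam, and in DCA a single peak, at Hspb3.

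H3K27me3 showed the widest gap between lists at the small heat shock genes. Their windows held 9, 13, 24 and 1 H3K27me3 peaks, most in Lam and fewest in DCA. In DCA 6 of the 7 were called with fewer peaks than in Lam, as were 46.7% of all genes. The log2 ratio was −4.58 (95% interval −9.95 to −1.97), against −1.04 for all genes, and it rests on 1 peak in DCA. At equal list sizes the numbers were 6, 7, 18 and 1. At a q of at most 0.05 they were 0, 0, 0 and 0, so all of these peaks had a q above that limit. Hspb8 had 3, 4, 10 and 0 and Hspb7 had 2, 0, 6 and 0 peaks. J-domain genes had 85, 81, 95 and 44 H3K27me3 peaks, with DCA over Lam at −1.11 (−1.66 to −0.58), near the value of all genes. HSP70 genes had 18, 18, 31 and 7.

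Over all 74 members H3K27me3 peaks numbered 123, 121, 165 and 56. DCA over Lam was −1.56 on the log2 scale (−2.02 to −1.11), against −1.04 for all genes, and SNA over Sham was −0.02 (−0.40 to 0.35). With lists of equal size DCA over Lam was −0.96, against −0.26 for all genes. By the 2-fold rule 40 members had fewer H3K27me3 peaks in DCA than in Lam (46.7% of all genes) and 6 had more (4.78%). Lam against Sham gave 25 with more (24.1%) and 12 with fewer (9.84%), and SNA against Sham 11 with more (14.6%) and 15 with fewer (19.6%). In SNA and DCA alike 10 members were called with fewer than in the matching control, as were 12.7% of all genes. These included Hspb7, Hspb11, Hspbp1, Hspa12b and Dnajb6, which had 2, 0, 4 and 0. At a q of at most 0.05 the members had 0, 0, 2 and 0 H3K27me3 peaks, so nearly all of these differences are between peaks with a q above that limit.

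Among the HSP70 genes all 13 had H3K9ac and ATAC start peaks in all 4 lists, and the H3K27ac lists separated them. Together their windows held 67, 89, 63 and 89 H3K9ac peaks and 44, 84, 69 and 53 H3K27ac peaks. Hspa8 had 2, 6, 3 and 5 H3K9ac peaks, more in SNA than in the other lists, and 2, 4, 3 and 3 H3K27ac peaks. It was called in SNA with all peaks and at equal list sizes, where it had 2, 5, 3 and 4 H3K9ac peaks. The ATAC start peaks of Hspa8 had folds of 6.61, 7.33, 6.89 and 6.50. Hspa13 had the ATAC start peak of highest fold among all members in each of the 4 lists, with folds of 10.7, 11.5, 10.3 and 10.1 and ranks 46, 37, 52 and 44 in lists of 153556 to 174605 peaks, while its H3K27ac peaks were 0, 2, 1 and 1. Its start site was thus open in the list that had no H3K27ac there.

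The stress-inducible genes Hspa1a (gene ID 193740, 34969359 to 34972156) and Hspa1b (gene ID 15511, 34956429 to 34959238) lie on the minus strand of chromosome 17, beside Hspa1l, with overlapping windows. The starts of Hspa1a and Hspa1l shared their peaks. Hspa1a had 3, 6, 6 and 10 H3K9ac peaks and 2, 6, 8 and 3 H3K27ac peaks. Hspa1b had 4, 4, 5 and 9 H3K9ac peaks and 3, 7, 8 and 3 H3K27ac peaks. Sham and DCA were low for H3K27ac, and DCA was high for H3K9ac, in the windows of both near-identical copies, which share peaks where they overlap. Within 1 kb of either gene there were 1, 1, 1 and 1 H3K9ac peaks, so the H3K9ac excess of DCA lay further out. The window of Hspa1a also reaches Lsm2. Within 1 kb Hspa1b had 0, 1, 1 and 1 H3K27ac peaks, and that of SNA had a fold of 10.7 and rank 223 of 75824. At the shared start of Hspa1a and Hspa1l the H3K27ac peak was in SNA and Lam only, with folds of 4.30 and 6.86.

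Hspa5 had 2, 3, 2 and 3 H3K9ac peaks and 4, 2, 3 and 1 H3K27ac peaks, fewest in DCA. Hspa9 differed little, with 5, 6, 6 and 7 and 4, 6, 5 and 5. Hspa14, which works with a J-domain protein at the ribosome, had 1, 2, 0 and 2 H3K27ac peaks and lacked the start peak in Lam alone. Hspa2, an HSP70 of germ cells and neurons, had 2, 4, 1 and 3 H3K9ac peaks. Hspa4 and Hspa4l, both exchange factors, had 3, 5, 4 and 2 and 2, 3, 3 and 1 H3K27ac peaks, lowest in DCA, and Hspa12b, an endothelial HSP70, had 6, 4, 2 and 5 H3K9ac peaks.

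Hspa12a, a distant HSP70 relative, held the most H3K9ac, H3K27ac and ATAC peaks of any member in every list of those assays, with 34, 49, 29 and 43 H3K9ac and 22, 45, 33 and 29 H3K27ac peaks over a gene of 147923 bases (gene ID 73442, chromosome 19, 58795750 to 58943672, minus strand). H3K27ac peaks centred within 1 kb of its outer start numbered 0, 2, 2 and 2, and its Sham start peak was at an inner start. It also held 8 of the 32 member regions with H3K9ac in SNA and DCA and in neither control. Inside the gene stood the strongest H3K27ac peak of any member in Sham, at chr19:58883628-58884594, 59.6 kb from the outer gene end. The peak over it had a fold of 36.5, 5.07, 22.0 and 22.2 in the 4 lists and a rank of 26, 9110, 72 and 108. A neighbour at chr19:58872656-58873742 had folds of 22.2, 3.84, 14.8 and 17.7 and ranks 207, 43721, 321 and 255. Both peaks stood near the top of 3 lists and far down the SNA list. The lists held 43803, 75824, 67311 and 46489 peaks. Ranks belong to peaks of their own list, and a change between lists was not tested. The first was under an ATAC peak in Sham and SNA only, with folds of 1.89 and 1.69, and the second in SNA and DCA only. The lists differed in this over all members: of the 20 strongest member H3K27ac peaks of each list, 1, 17, 9 and 8 were at a start. Over whole lists 27.4%, 72.4%, 38.5% and 25.9% of the strongest 1% of H3K27ac peaks were at a gene start.

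**Figure D5:**
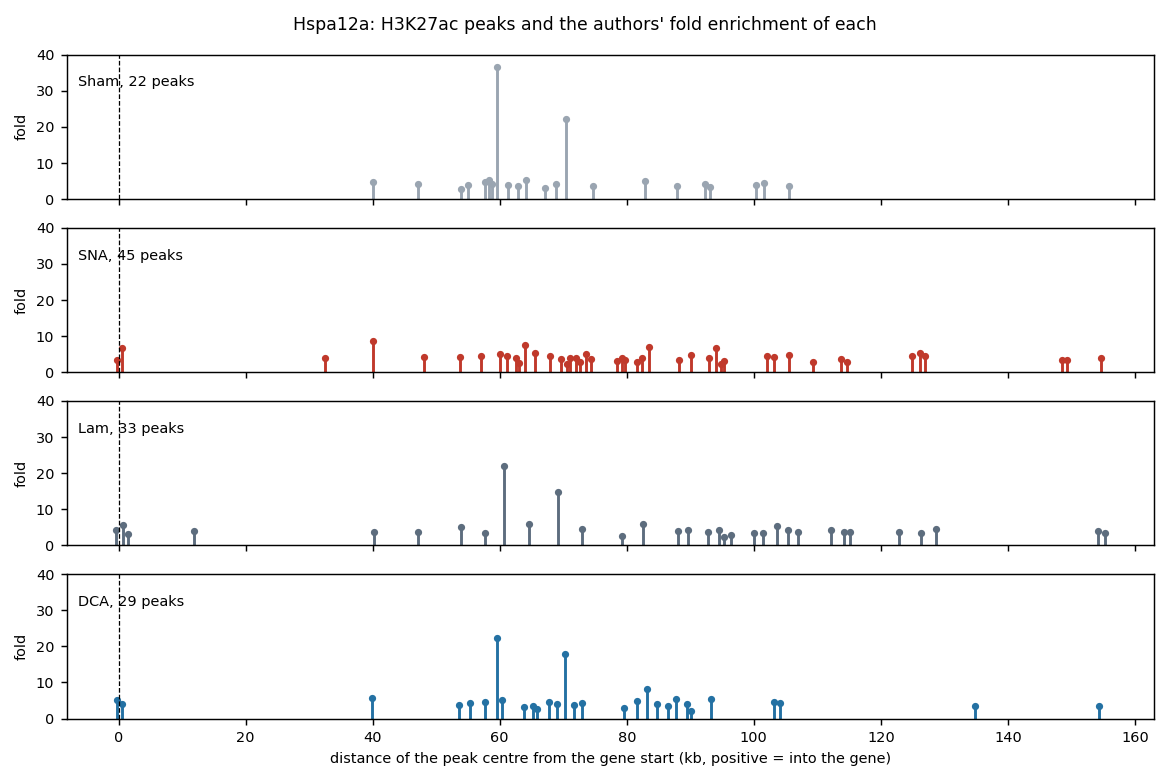
H3K27ac peaks in the window of Hspa12a in the 4 lists, by distance of the peak centre from the outer gene end in kb (horizontal, positive into the gene) and by the fold enrichment that the authors' list gives (vertical). The 2 tall peaks near 59.6 and 70.5 kb in Sham, Lam and DCA have folds of at least 14.8, and the SNA peaks there have folds of 5.07 and 3.84. Folds of different lists are shown side by side and are not a measure of change.

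Hsp90aa1, the inducible HSP90 (gene ID 15519, chromosome 12, 110691036 to 110696395), had 0, 2, 1 and 7 H3K9ac peaks, none in Sham and most in DCA. It was 1 of 3 members called by the 2-fold rule with more H3K9ac peaks in both injuries than in their controls (4.87% of all genes). The others were Dnajb1 and Hspb11. Within 1 kb of the gene Hsp90aa1 had 0, 1, 1 and 2 peaks. Its H3K9ac start peak had a fold of 1.95 in SNA, 1.92 in Lam and 7.28 in DCA, at ranks 71536 of 74652, 48617 of 50667 and 733 of 89647. In SNA and Lam it ranked near the bottom of the list. At equal list sizes Hsp90aa1 had 0, 0, 1 and 4 H3K9ac peaks, so the call held for DCA and was lost for SNA. Its H3K27ac peaks (3, 2, 3 and 2) and ATAC peaks (5, 5, 4 and 6) differed little. Hsp90ab1 had 4, 4, 4 and 8 H3K9ac and 4, 6, 5 and 4 H3K27ac peaks, and Hsp90b1, the HSP90 of the endoplasmic reticulum, had 3, 5, 3 and 3 and 5, 4, 6 and 6.

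Hspd1 and Hspe1 share a start region, and both had 3, 2, 2 and 2 H3K9ac peaks and 0, 2, 1 and 2 H3K27ac peaks. Sham had no H3K27ac peak in either window, whereas the ATAC start peak was in all 4 lists with folds of 5.81, 6.43, 6.09 and 5.56. The H3K27ac region on the Hspe1 side, chr1:55088337-55088834, was in SNA and DCA and in neither control. Hsph1 had 1, 3, 2 and 2 H3K9ac peaks and 8, 8, 4 and 8 ATAC peaks. Hspb11, a subunit of intraflagellar transport, had 0, 1, 1 and 3 H3K9ac peaks, and its start peak was in Lam and DCA only. Hspbp1 had 4, 10, 8 and 7 H3K27ac peaks and Hspbap1 had 2, 3, 4 and 2.

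The 45 J-domain genes had 147, 192, 166 and 231 H3K9ac peaks, 133, 198, 177 and 146 H3K27ac peaks and 267, 296, 280 and 294 ATAC peaks. Dnajb1 had 2, 5, 3 and 7 H3K9ac peaks, higher after each axotomy than after its control, and 1, 3, 2 and 3 within 1 kb. At equal list sizes it had 2, 4, 3 and 4, and neither call held. Hspb11 then had 0, 0, 1 and 3, called in DCA only. ATAC start folds of Dnajb1 were 7.31, 7.55, 5.83 and 5.45. Per gene the number of H3K9ac peaks ranged from 0 to 17, 22, 20 and 25. Among these 45 genes the largest excess of H3K9ac peaks in SNA over Sham was at Dnajc7, a partner of HSP70 and HSP90 with tetratricopeptide repeats, at 16, 22, 17 and 25. Its window reaches Cnp, a gene of myelinating cells. Dnajc7 had the largest excess in DCA over Lam too, together with Dnajb13, a protein of sperm tails and cilia, at 6, 5, 1 and 9. The largest deficit in SNA was at Dnajc21, a ribosome factor, at 2, 0, 2 and 1. In DCA the largest deficit was 1 peak, shared by 7 J-domain genes. The first 3 by symbol were Dnajb7, Dnajc10 (1, 2, 2 and 1) and Dnajc15 (1, 1, 3 and 2).

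Among J-domain genes the largest excess of H3K27ac peaks in SNA over Sham was at Dnajc17, a splicing factor, with 3, 14, 10 and 9 peaks. Lam and DCA were also above Sham there, and its window reaches Gchfr, Ppp1r14d, Zfyve19 and Gm14137. Dnajb12, of the endoplasmic reticulum membrane, had the largest J-domain deficit in DCA against Lam, with 12, 20, 18 and 12. Dnajc30, of mitochondria, had the largest J-domain deficit in SNA, with 3, 1, 3 and 2. The largest J-domain excess in DCA was 2 peaks, at Dnajc11 (3, 3, 3 and 5), Dnajc12 (3, 3, 2 and 4) and Dnajc13 (5, 5, 2 and 4), and at the last 2 Lam was the low list. Dnajb3 and Dnajc22 had 1, 0, 1 and 0 H3K27ac peaks each and were the 2 members called with fewer in both injuries, as were 1.15% of all genes. Dnajc10, a disulfide reductase of the endoplasmic reticulum, was the only member called with more ATAC peaks in both injuries by the 2-fold rule (1.26% of all genes), at 2, 5, 1 and 3.

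Among J-domain genes the largest ATAC excess in SNA was at Dnajc27 (6, 11, 9 and 12) and in DCA at Dnajc6, auxilin, which strips clathrin from vesicles (26, 25, 18 and 25). Lam was the low list at Dnajc6. The largest J-domain ATAC deficit in SNA was 2 peaks, shared by 8 genes, the first 3 by symbol being Dnaja3, a mitochondrial J-domain protein (8, 6, 10 and 6), Dnajb3 (4, 2, 5 and 4) and Dnajc15 (3, 1, 1 and 5). In DCA it was 4 peaks, shared by Dnaja3, Dnaja4 (6, 5, 7 and 3), Dnajb5 (5, 4, 8 and 4) and Dnajc1 (10, 11, 13 and 9). For H3K27me3 Dnajc1, of the endoplasmic reticulum membrane, had 15, 6, 7 and 3 peaks, fewer in each injury than in its control, and Dnajc5b had 13, 16, 5 and 11, more in each. Among J-domain genes the H3K27me3 deficits of DCA were largest at Dnajb5 (2, 1, 5 and 0), Dnajb8 (6, 4, 5 and 0) and Dnajc6 (6, 5, 8 and 3). Dnajc15, of the mitochondrial inner membrane, was the only member called with more H3K27me3 peaks in both (0, 2, 0 and 1).

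With peaks merged over the 4 lists of an assay, member regions at starts were in all 4 lists at a higher rate than member regions elsewhere, for both acetylations and ATAC. Of 422 H3K9ac regions 141 (33.4%) were in all 4 lists, against 19.9% of the regions of all genes. For H3K27ac it was 88 of 383 (23.0%, against 14.7%), for ATAC 175 of 836 (20.9%, against 12.2%) and for H3K27me3 7 of 321 (2.18%, against 3.95%). Of the regions at a start of a chaperone gene, 60.5% of H3K9ac, 37.4% of H3K27ac and 79.8% of ATAC regions were in all 4 lists. Inside genes and away from starts these shares were 22.4%, 15.0% and 9.70%. Shares by position were not counted for all genes, so they do not show a trait particular to the chaperone genes. Regions in both injuries and in neither control numbered 32 for H3K9ac (7.58%, against 8.50% of the regions of all genes), and the reverse pattern 0 (against 0.339%). H3K27ac gave 11 (2.87%, against 2.36%) and 10 (2.61%, against 2.41%). ATAC gave 32 (3.83%, against 4.35%) and 11 (1.32%, against 2.64%), and H3K27me3 5 (1.56%, against 1.82%) and 24 (7.48%, against 4.96%). The shares for the acetylations and ATAC in both injuries were near those of all genes. The H3K9ac lists of both injuries were the largest.

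Other genes of the chaperone network were a list of 46 heat shock factors, co-chaperones and chaperonin subunits, of which 44 were found. They had ATAC start peaks at 43, 43, 44 and 44, against 68.8%, 70.7%, 69.0% and 70.1% of all genes. Their H3K27ac start peaks numbered 31, 39, 38 and 31, lower in Sham and DCA. The shares over all genes were lower in these lists too, at 40.4%, 51.6%, 51.3% and 43.3%. By the 2-fold rule 9 of the 44 had more H3K27ac peaks in SNA than in Sham (21.5% of all genes) and 0 fewer (6.09%), and in DCA against Lam 2 had more (3.36%) and 8 fewer (14.6%). Sil1, the exchange factor of Hspa5, had 10, 28, 16 and 23 H3K9ac peaks and 7, 21, 18 and 8 H3K27ac peaks. Hsf1, the main heat shock factor, had H3K9ac, H3K27ac and ATAC start peaks in all 4 lists, with 3, 4, 3 and 5 H3K9ac peaks in its window. Hsf2 had H3K27ac peaks of 0, 1, 1 and 0, absent in Sham and DCA, and Hsf5, a testis factor, had no acetylation at its start.

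The tissue label was checked against cell markers by the same start windows. Of 12 sensory neuron markers 11, 12, 12 and 12 had ATAC start peaks, against 68.8%, 70.7%, 69.0% and 70.1% of all genes. Skeletal muscle markers had them too, at 6, 5, 4 and 5 of 7, and liver markers at 0, 1, 1 and 1 of 6. Only 1 to 3 neuron markers had H3K9ac start peaks (50.1% to 59.9% of all genes) and 2 to 4 H3K27ac start peaks (40.4% to 51.6%). H3K27me3 start peaks were at 8, 7, 10 and 3 of the 12, against 22.2%, 16.9%, 25.1% and 8.46% of all genes. Of 10 markers of satellite glia and Schwann cells, 7, 9, 9 and 9 had H3K9ac and 8, 9, 10 and 6 H3K27ac start peaks. Of 6 markers of smooth muscle and endothelium, 4, 3, 3 and 4 had H3K9ac and 0, 3, 3 and 0 H3K27ac start peaks. The latter were absent in Sham and DCA, the lists in which the chaperone genes had the fewest. Over all genes the H3K27ac shares were also lowest in these 2 lists, at 40.4%, 51.6%, 51.3% and 43.3%. Acetylated starts were found at 0 or 1 of 8 macrophage, 7 skeletal muscle and 6 liver markers in each list. Glial marker windows held 81, 106, 58 and 106 H3K9ac peaks and 67, 125, 103 and 75 H3K27ac peaks. For both marks SNA was above Sham, and DCA was above Lam for H3K9ac and below it for H3K27ac. These directions were those of the chaperone genes and of all genes. Over all genes the log2 ratio of SNA over Sham was 0.54 for H3K9ac and 0.81 for H3K27ac, and that of DCA over Lam 0.79 and −0.52. The part of glial, smooth muscle or endothelial cells in the differences at the chaperone genes was not tested.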

How the data were processed

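The peaks were those of the 16 deposited lists, 1 for each assay and operation, made from pooled replicates per the series' design text. The build is mm10 per the submitters' processing notes. The aligner, peak caller and settings are not given in the sources used here. The authors' lists give a fold enrichment, a linear ratio of a peak over background, and −log10 p and −log10 q for each peak. These deposited values are the authors' and were used to describe peaks of the same list, to order them and to set limits. The deposited display score was not used. In each of the 16 lists the peak names run to numbers beyond its line count. Read depth is unknown. H3K9ac lists differed in strength: 56.1% of Sham peaks and 99.0% of DCA peaks had a q of at most 0.05.

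ATAC intervals listed repeatedly were collapsed to the summit of highest −log10 p. A peak counted for a gene when it overlapped the window by at least 1 base. Gene bodies, starts and promoters came from RefSeq tables of GRCm38.p6. As a check of the build, 58.5% of listed starts lay inside an ATAC Sham peak and 4.70% after a shift of 10 kb. Of the members 60 had a listed start, 56 had windows that reach another gene and 5 shared windows. Ratios have exact binomial and shares Wilson intervals (Python 3.11.15, pandas 2.3.3, scipy 1.17.1). The counting was tested on simulated data.

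Members and lists were chosen with earlier results of these data known. Named were all Hsp genes, and Dnaj genes called alike in both injuries in an assay, with the largest rise or fall in a comparison, or without an active start peak in any list. Alternatives were stricter q limits, equal list sizes, other windows, overlaps, members and call rules.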

Additional observations from a re-analysis of the deposited data

How the results depend on the processing

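No paired analysis was possible because replicates were pooled into 1 list per assay and operation. For the same reason no replicate could be left out. Windows of 1 kb, a 50% overlap and leaving out members with shared windows moved none of the 12 log2 ratios out of its interval. At equal list sizes H3K9ac SNA over Sham became −0.028, H3K9ac DCA over Lam −0.038 and H3K27ac DCA over Lam 0.088, each of opposite sign to the value with all peaks. By construction that alternative removes the difference in list length. It also gave 0.17 for H3K27ac SNA over Sham (all genes 0.05), 0.066 for H3K27ac Lam over Sham (all genes 0.03) and −0.96 for H3K27me3 DCA over Lam (all genes −0.26). A q of at most 0.05 gave 0.75 for H3K9ac SNA over Sham and 0.38 for Lam over Sham. A −log10 q of at least 5 gave 1.82, 2.05 and 1.49 for H3K9ac SNA over Sham, DCA over Lam and Lam over Sham, 0.35 and −0.57 for H3K27ac SNA over Sham and DCA over Lam, and 0.45 and 0.26 for ATAC SNA over Sham and DCA over Lam. H3K27me3 had no peak left in 1 or both lists of each comparison at either q limit and so gave no value. Without peaks in windows of other genes, H3K27me3 DCA over Lam was −1.07 and ATAC DCA over Lam 0.22. The cause of these moves was not tested.

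Start counts at a −log10 q of at least 5 were 13, 28 and 28 members for H3K9ac in Sham, SNA and Lam and 0 for H3K27me3 in Sham, SNA and Lam. Within 500 bases the H3K27me3 Sham count was 4. At equal sizes, a setting added after the data were seen for all counts of genes, it was 5 in SNA and 7 in Lam, and the other 14 start counts stayed within 1.5 times.

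Calling a difference of at least 2 peaks in place of 2-fold moved 16 of 24 counts. H3K9ac then had 24 members with more in SNA over Sham, 31 with more in DCA over Lam and 7 with fewer in Lam over Sham. H3K27ac had 33 with more in SNA over Sham, 4 with more and 22 with fewer in DCA over Lam, and 21 with more in Lam over Sham. H3K27me3 had 9 with fewer in SNA over Sham, 2 with more in DCA over Lam and 5 with fewer in Lam over Sham. ATAC had 26 more and 10 fewer in SNA over Sham, 18 and 14 in DCA over Lam, and 19 and 10 in Lam over Sham. Equal list sizes moved 11 of 24 counts. H3K9ac then had 3 more and 6 fewer in SNA over Sham and 4 and 4 in DCA over Lam. H3K27ac had 12 more and 9 fewer in SNA over Sham, 5 and 3 in DCA over Lam, and 8 and 10 in Lam over Sham. H3K27me3 had 13 with more in DCA over Lam.

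Unknown depth and single pooled lists limit every value: the strength a peak needed to be listed is not known, and a difference between lists has no replicate check.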
